A study of Mus musculus with 49 samples.

Results

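The genes described here were the D-type cyclins Ccnd1, Ccnd2 and Ccnd3, their kinases Cdk4 and Cdk6, and the inhibitors of those kinases, the CIP/KIP genes Cdkn1a (p21), Cdkn1b (p27) and Cdkn1c (p57) and the INK4 genes Cdkn2c (p18) and Cdkn2d (p19). They were taken by symbol from the table of 38253 Ensembl genes. Of the 10 listed genes 9 had a row under their GENCODE M1 identifier; Cdkn2d was not analysed here. The expression values were FPKM, that is fragments scaled by transcript length and by library size, so levels of different genes can be set side by side.

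A total of 49 mouse RNA samples in 10 groups were profiled, to ask how the normal cell in which a leukaemia starts is reflected in its transcriptome. All mice were wild-type C57BL/6J, and an age of 6 to 12 weeks is given for every sample. The 30 normal samples were sorted from bone marrow. They were 5 of LT-HSC, the stem cells with long-term activity (Lin- Sca-1+ c-Kit+ CD150+ with no or low CD34), 5 of ST-HSC, those with short-term activity (the same gate with CD34+), 6 of MPP, the multipotent progenitors (Lin- Sca-1+ c-Kit+ CD150- CD34+), and 5 of CMP, 5 of GMP and 4 of MEP, the committed progenitors of myeloid cells in common, of granulocytes with macrophages, and of megakaryocytes with red cells. The 19 leukaemia samples, each named for the sorted cell that received the MLL-AF9 (MA9) fusion, comprised 3 of STHSC:MA9, 6 of MPP:MA9, 4 of CMP:MA9 and 6 of GMP:MA9. The fusion came from an MSCV retrovirus that also carried GFP, whose long terminal repeat drives both in every transduced cell, and the cells went straight into sublethally irradiated recipients, which keep blood cells of their own. According to the methods each sample came from a separate mouse and the GFP+ leukaemia cells were sorted from spleen, although the labels give bone marrow for every sample. Leukaemia cells were collected once the recipients fell ill, at a host age that is not given. Tissue, host irradiation, host age, time since transplant, viral transduction and transformation therefore cannot be told apart when leukaemia and normal cells are compared. In bulk RNA, fewer cells of a type and less RNA per cell cannot be told apart either.

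Before a cell copies its DNA, a D-type cyclin binds Cdk4 or Cdk6, and the active kinase phosphorylates the retinoblastoma protein, which then releases E2F factors. INK4 proteins bind Cdk4 and Cdk6 and keep the cyclin out, whereas CIP/KIP proteins bind whole cyclin-kinase complexes and above all block cyclin E with Cdk2. In blood formation this switch is known for holding stem cells at rest, and Cdk6 is a known target of MLL fusion proteins.

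The labelled cell types were checked against their markers. Kit, the receptor behind the c-Kit gate, was at 43.2 to 152 FPKM in the 30 normal samples and at 0.33 to 5.94 FPKM in the 19 leukaemias. Cd34 was at 7.53 to 18.1 FPKM in LT-HSC and 44.1 to 108 FPKM in ST-HSC, following the gate. Slamf1, which encodes CD150, was at 4.79 to 17.0 FPKM in LT-HSC and ST-HSC. In MPP, CMP and GMP, all sorted as CD150-, it was at 0.07 to 0.30, 2.19 to 3.99 and 0 to 0.20 FPKM. Mpo and Klf1 were not part of the gates. Mpo was at 10745 to 14354 FPKM in GMP and 2.74 to 4292 FPKM in the other normal samples. Klf1 was at 108 to 128 FPKM in MEP and 0.28 to 80.8 FPKM in the other normal samples. All 8 mature granulocyte markers were detected (group median of at least 1 FPKM) in every leukaemia group, with sums from 998 to 51973 FPKM. Their sums were 51.4 to 42420 FPKM in ST-HSC, 13.7 to 884 FPKM in MPP, 21.0 to 259 FPKM in CMP and 1709 to 11369 FPKM in GMP, where GMP:MA9 had 1256 to 14467 FPKM. Of the 8 markers 5, 8, 7 and 1 were called higher in the leukaemia at the ST-HSC, MPP, CMP and GMP origins. The 4 macrophage markers summed to 33.3 to 54.0 FPKM in the leukaemias and 0 to 17.4 FPKM in the normal samples, with 1 or 2 of the 4 at a group median of at least 1 FPKM in the leukaemias. The part of these cell types in the differences below was not tested. LT-HSC replicates 4 and 5 (S100a8 at 20265 and 10324 FPKM) and ST-HSC replicates 4 and 5 (12625 and 2201 FPKM) stood apart from the other LT-HSC and ST-HSC libraries (6.49 to 352 FPKM). The same 4 libraries had the highest sums of the 5 red cell markers, 60603 and 32971 FPKM in LT-HSC and 33010 and 5230 FPKM in ST-HSC, against 69.0 to 5118 FPKM in the other 6, and results that change without these 4 libraries are given both ways. The low end of the FPKM values put the relative depth of the libraries between 0.49 and 1.54 times the median, with LT-HSC, ST-HSC, MEP and STHSC:MA9 on the shallow side (0.49 to 0.86) and MPP at 1.15 to 1.41. Between 15282 and 17852 genes were above 0.

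Several of the genes share sequence or overlap a gene on the other strand. The library kit did not mark strand, so reads from the stretch that such a pair shares cannot be told apart. In the GENCODE M1 annotation of the mouse assembly NCBIM37 (mm9), Ccnd1 (chr7:152115836-152125774, minus strand) overlaps Oraov1, Ccnd3 (chr17:47642000-47736632, plus) overlaps Bysl, and Cdk4 (chr10:126500590-126504976, plus) overlaps Tspan31. A share of 21.4%, 25.6% and 19.8% of the 31-base words of the 3 genes was also found in other genes, mostly the overlapping partner and, for Ccnd3, also its pseudogene Ccnd3-ps. Ccnd2 (chr6:127075797-127101066, minus) and Cdk6 (chr5:3343893-3523218, plus), which overlap the antisense loci 9330179D12Rik and Gm17590, Cdkn1a (chr17:29227924-29237667, plus), Cdkn1b (chr6:134870419-134875531, plus), Cdkn1c (chr7:150644255-150646955, minus) and Cdkn2c (chr4:109333481-109339794, minus) each shared at most 4.52%. All are protein-coding genes, and an FPKM value sums over all exons, UTRs included.

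Promoters are shown for Cdk4, which was called lower, and for Ccnd3 and Cdkn1a, which were called higher, at all 4 origins described below, since such genes are read through these windows. Each runs from 250 bases before to 50 after a start in RefSeq on GRCm38.p6, a newer assembly than that of the gene positions above, and 7 of the 10 listed genes had one. Capitals mark motif letters, each searched on both strands. The E-box was searched as CACGTG, which is its own reverse complement. The GC box was searched as GGGCGG. The CCAAT and TATAAA boxes were searched by those letters. The E2F motif was searched in the form TTTCCCGC and in the form TTTGGCGC.
Cdk4, chr10:127063285-127063584, plus strand: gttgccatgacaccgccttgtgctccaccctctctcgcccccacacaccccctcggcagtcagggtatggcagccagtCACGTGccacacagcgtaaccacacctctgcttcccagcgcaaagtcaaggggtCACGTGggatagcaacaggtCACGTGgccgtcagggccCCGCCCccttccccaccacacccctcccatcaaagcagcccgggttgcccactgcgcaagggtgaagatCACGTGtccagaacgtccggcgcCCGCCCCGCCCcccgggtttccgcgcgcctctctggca
Ccnd3, upstream start, chr17:47504801-47505100, plus strand: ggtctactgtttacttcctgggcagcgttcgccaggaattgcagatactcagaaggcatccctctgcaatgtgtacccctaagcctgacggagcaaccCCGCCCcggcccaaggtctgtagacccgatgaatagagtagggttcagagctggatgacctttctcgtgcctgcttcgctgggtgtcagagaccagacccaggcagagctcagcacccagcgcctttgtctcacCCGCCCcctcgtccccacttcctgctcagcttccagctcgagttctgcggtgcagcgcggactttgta
Ccnd3, downstream start, chr17:47593217-47593516, plus strand: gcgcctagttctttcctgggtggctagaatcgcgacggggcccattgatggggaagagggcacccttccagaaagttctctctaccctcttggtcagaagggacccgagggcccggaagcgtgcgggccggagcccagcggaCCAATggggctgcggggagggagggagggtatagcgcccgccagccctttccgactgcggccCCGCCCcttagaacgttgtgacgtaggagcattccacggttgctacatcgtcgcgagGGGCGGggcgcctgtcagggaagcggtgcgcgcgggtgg
Cdkn1a, upstream start, chr17:29090729-29091028, plus strand: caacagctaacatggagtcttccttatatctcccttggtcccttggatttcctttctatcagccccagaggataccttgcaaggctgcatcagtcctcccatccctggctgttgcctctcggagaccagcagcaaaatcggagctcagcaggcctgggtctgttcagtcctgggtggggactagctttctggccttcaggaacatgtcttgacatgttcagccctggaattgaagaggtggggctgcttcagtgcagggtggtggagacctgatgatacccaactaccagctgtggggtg
Cdkn1a, downstream start, chr17:29093519-29093818, plus strand: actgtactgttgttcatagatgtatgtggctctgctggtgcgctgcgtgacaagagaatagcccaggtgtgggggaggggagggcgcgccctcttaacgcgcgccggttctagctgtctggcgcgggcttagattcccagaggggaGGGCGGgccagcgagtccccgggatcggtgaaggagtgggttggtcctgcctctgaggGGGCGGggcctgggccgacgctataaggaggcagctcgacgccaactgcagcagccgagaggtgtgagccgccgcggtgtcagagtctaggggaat
The Cdk4 window held 4 E-boxes and 3 GC boxes, of which 2 overlapped each other. An E-box was found in 7.15% and a GC box in 35.7% of the 32851 promoter windows of the table. Both Ccnd3 windows had 2 GC boxes, and the downstream one also had a CCAAT (37.4% of all windows). The upstream Cdkn1a window held none of the motifs and the downstream one 2 GC boxes, and they were 54.7% and 64.7% G or C, against a median of 52.7% over all windows. None of the printed windows held the TATAAA or E2F letters, which occurred in 13.6% and 1.56% of all windows.

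Expression of the cyclins, kinases and inhibitors was first compared between each leukaemia and the normal cell in which it was started. In every such comparison Ccnd2 and Cdk4 were lower in the leukaemia, and Ccnd3 and Cdkn1a were higher, whichever cell the leukaemia came from. A gene was called when limma's moderated test on log2(FPKM + 1) gave a Benjamini-Hochberg adjusted p under 0.05 over all genes tested and a log2 difference above 1 or below -1, and all log2 differences below are on that scale, which understates the change of genes near or under 1 FPKM. All 9 genes with a row passed the filter on low values, set at 1 FPKM on average in the samples fitted.

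At the ST-HSC origin 4 of 9 were called higher (background over all 12600 genes 12.3%) and 2 lower (11.9%), 7 had an adjusted p under 0.05 (48.4%), and for 7 the groups did not overlap (39.6%). At the MPP origin 3 were called higher (13.5%) and 2 lower (13.6%), 6 had an adjusted p under 0.05 (62.5%), and 6 did not overlap (40.3%). At the CMP origin 2 were called higher (13%) and 2 lower (14.8%), 6 had an adjusted p under 0.05 (59.8%), and 6 did not overlap (48.4%). At the GMP origin 5 were called higher (13.5%) and 2 lower (8.87%), 7 had an adjusted p under 0.05 (58.4%), and 5 did not overlap (39.6%). Over all genes the calls at the CMP origin were 1641 higher and 1867 lower, and 1923 and 1436 after median-ratio scaling. By adjusted p alone the share of the 9 genes was near the background at the MPP and CMP origins and above it at the ST-HSC and GMP origins. Calls were more frequent than in the whole table at all 4. The 9 genes were chosen with earlier results of these data known, so these shares are given as a description. The median difference of the 9 genes was 1.15, 0.59, 0.53 and 1.14 at the 4 origins, against -0.04, -0.09, -0.16 and 0.00 over all genes tested.

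**Figure D1:**
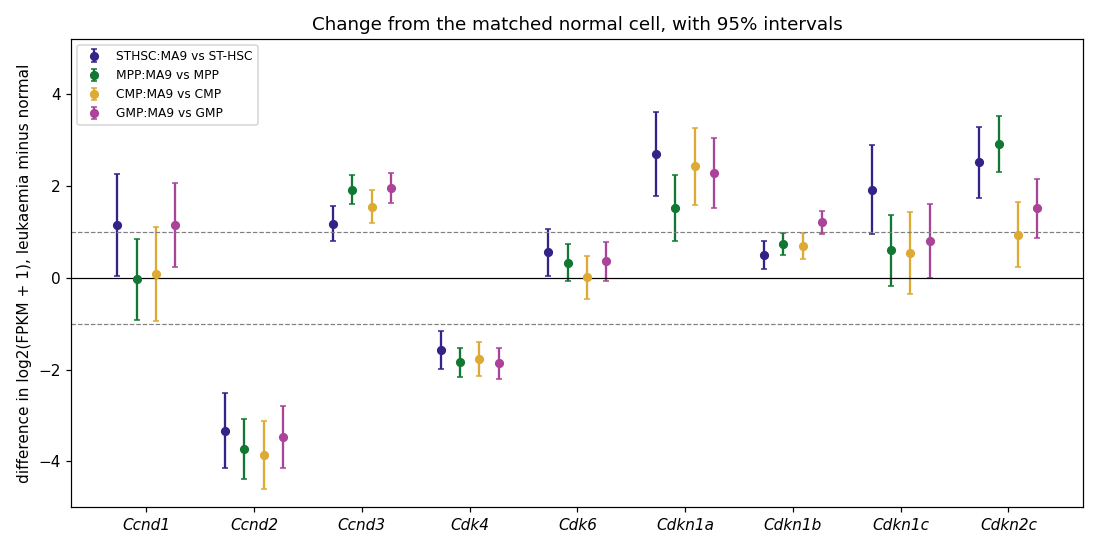
Difference in log2(FPKM + 1) between each leukaemia group and its matched normal group (vertical axis) for the 9 genes (horizontal axis), with points for the fitted difference, bars for 95% intervals and dashed lines at -1 and 1. Ccnd2 lies between -3.86 and -3.33 and Cdk4 between -1.86 and -1.57 at all 4 origins, and Ccnd3 between 1.18 and 1.96.

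Ccnd2, the D-type cyclin that answers growth factor signals in many blood cells, was the most strongly reduced of the 9 genes. The ST-HSC samples had 41.9, 36.8, 35.2, 28.0 and 31.2 FPKM and the STHSC:MA9 samples 1.39, 5.39 and 1.83 FPKM. CMP samples had 43.0, 42.6, 41.6, 38.9 and 38.3 FPKM, and CMP:MA9 samples 0.58, 0.73, 4.28 and 3.76 FPKM. Every leukaemia lay below every normal sample in both. MPP ranged from 37.4 to 46.0 with a median of 39.7 FPKM and MPP:MA9 from 0.89 to 5.30 with a median of 1.99 FPKM. GMP samples had 28.1, 28.0, 31.9, 29.2 and 28.9 FPKM, while GMP:MA9 ranged from 0.64 to 8.38 with a median of 1.08 FPKM. The highest GMP:MA9 value, replicate 5, stood apart from the other 5, which reached 2.15 FPKM, and was still below all 30 normal samples (21.8 to 54.9 FPKM). The log2 difference was -3.33 (SE 0.40, adjusted p = 1.24e-08) for STHSC:MA9, -3.73 (SE 0.32, adjusted p = 1.53e-12) for MPP:MA9, -3.86 (SE 0.37, adjusted p = 4.96e-11) for CMP:MA9 and -3.48 (SE 0.33, adjusted p = 9.46e-11) for GMP:MA9. In group means, Ccnd2 was 12.1 to 17.5 times lower in the leukaemias.

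Ccnd3, the D-type cyclin that is used most by maturing blood cells, moved the other way. The ST-HSC samples had 48.4, 34.9, 58.1, 90.9 and 66.6 FPKM and the STHSC:MA9 samples 145, 115 and 132 FPKM. In CMP it was 50.1, 55.3, 42.6, 44.0 and 59.9 FPKM, and in CMP:MA9 158, 157, 156 and 123 FPKM. The groups were apart at both origins, and the highest ST-HSC value came from one of the libraries with granulocyte and red cell transcripts. MPP ranged from 38.7 to 53.8 with a median of 49.6 FPKM and MPP:MA9 from 164 to 258 with a median of 177 FPKM. GMP samples had 46.4, 31.6, 32.4, 26.6 and 32.1 FPKM, and GMP:MA9 ranged from 118 to 171 with a median of 127 FPKM. Again no leukaemia overlapped its normal cell. The difference was 1.18 (SE 0.19, adjusted p = 3.56e-06), 1.92 (SE 0.15, adjusted p = 2.21e-13), 1.55 (SE 0.18, adjusted p = 2.52e-09) and 1.96 (SE 0.16, adjusted p = 1.94e-12) at the ST-HSC, MPP, CMP and GMP origins, and 1.47 (adjusted p = 3.20e-08) at the first of these without ST-HSC replicates 4 and 5. Bysl, which overlaps Ccnd3 on the other strand and is a ribosome assembly factor, was far lower in level (group means of 6.87 to 21.2 FPKM) and differed by 0.17, -0.09, -0.79 and -0.41 at the same origins, passing at the CMP and GMP origins (adjusted p = 6.9e-05 and 0.0157).

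Ccnd1, the D-type cyclin best known from epithelial tumours, was spread widely within the leukaemia groups. In STHSC:MA9 it was 6.09, 29.5 and 24.5 FPKM, in CMP:MA9 9.99, 7.13, 23.2 and 22.5 FPKM, and in MPP:MA9 and GMP:MA9 it ranged from 3.41 to 31.7 with a median of 15.1 FPKM and from 3.04 to 33.4 with a median of 13.5 FPKM. Normal GMP samples, by contrast, lay within 4.94 to 6.18 FPKM. Leukaemias and normal cells overlapped at all 4 origins, and replicate 2 of GMP:MA9 was below every GMP sample. Ccnd1 was called higher in GMP:MA9 (log2 difference 1.14, SE 0.45, adjusted p = 0.0296). The call was lost without the filter on low values (adjusted p = 0.057) and without GMP replicate 2, GMP replicate 3, GMP:MA9 replicate 4 or GMP:MA9 replicate 5 (log2 difference 0.89 to 1.51 over all libraries left out in turn). STHSC:MA9 against ST-HSC gave 1.15 (SE 0.55, adjusted p = 0.0787). With the replicate block and GC and length correction together this was 1.29 and passed (adjusted p = 0.0475). Without ST-HSC replicates 4 and 5 it was 0.95 (adjusted p = 0.215). Over all libraries left out in turn it was 0.76 to 1.81 and passed in 1 of 8 fits. Differences at the MPP and CMP origins were -0.04 (95% interval -0.91 to 0.84) and 0.08 (-0.93 to 1.10). Its overlapping partner Oraov1 had group means of 7.11 to 14.1 FPKM, near the level of Ccnd1 itself. Oraov1 differed by 0.53, 0.55, 0.12 and 0.44 at the 4 origins by limma's test (adjusted p = 0.0359, 0.00445, 0.622 and 0.031). It thus passed at the GMP origin, where Ccnd1 was called, and part of the Ccnd1 signal cannot be assigned to one strand.

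The makeup of the D-type cyclin message differed between normal cells and leukaemias. Of the summed FPKM of the 3 cyclins, Ccnd2 made up 14.7 to 52.3% in the 30 normal samples (median 39.2%) and 0.34 to 4.99% in the 19 leukaemias (median 0.95%). Ccnd3 made up 32.3 to 82.7% (median 48.8%) and 75.1 to 97.9% (median 89.2%). The highest normal share, 82.7%, was that of LT-HSC replicate 4, one of the libraries with granulocyte and red cell transcripts. The share of Ccnd1 covered a similar range in both, 2.65 to 15.4% and 1.52 to 19.9%. The summed level of the 3 cyclins was 62.0 to 149 FPKM in normal samples and 128 to 266 FPKM in leukaemias.

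**Figure D2:**
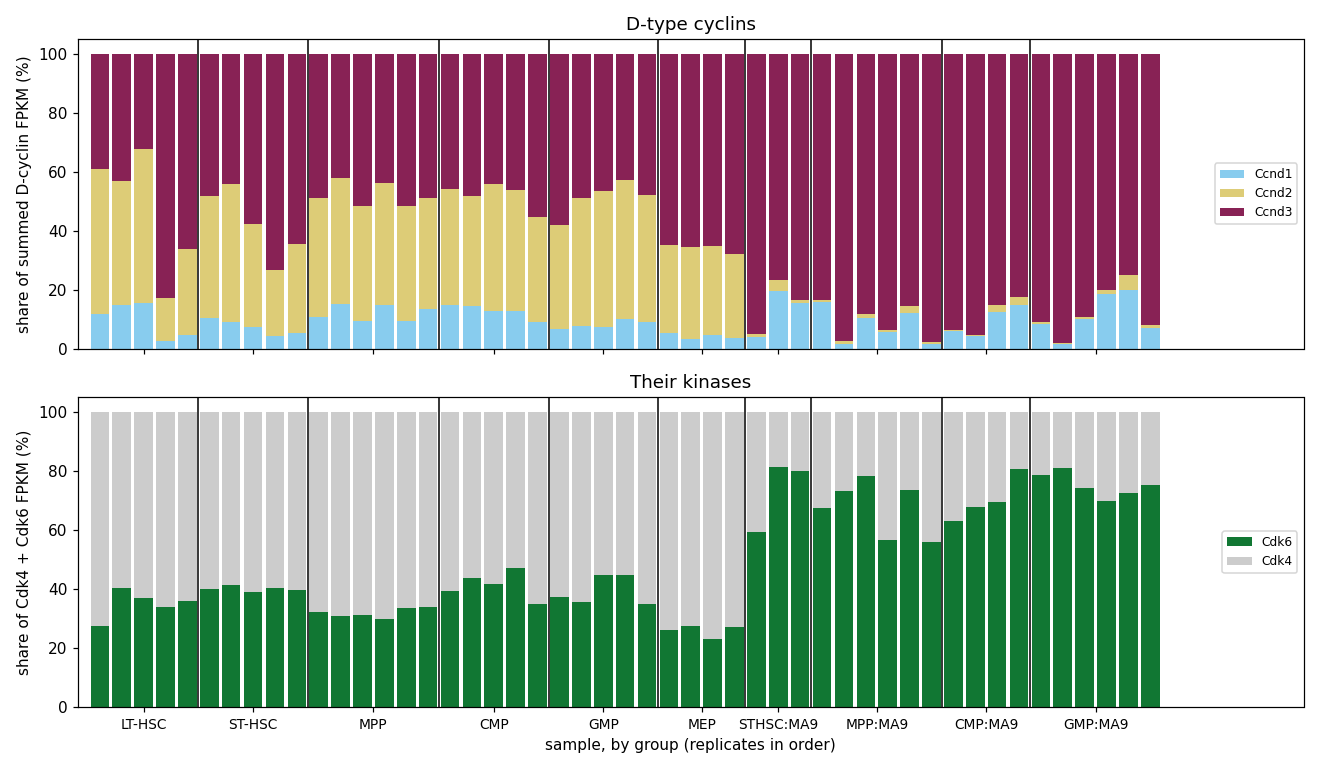
Share of Ccnd1, Ccnd2 and Ccnd3 in their summed FPKM (upper panel, percent) and share of Cdk6 in the summed FPKM of Cdk4 and Cdk6 (lower panel, percent), with 1 bar for each of the 49 samples, ordered by group and replicate. Ccnd2 fills 14.7 to 52.3% of the normal bars and at most 4.99% of the leukaemia bars, and Cdk6 fills at most 46.9% of the normal bars and at least 55.9% of the leukaemia bars.

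Cdk4, the kinase partner shared by all D-type cyclins, was lower in the leukaemias at every origin. ST-HSC samples had 258, 250.3, 312, 231 and 329 FPKM and STHSC:MA9 samples 82.8, 100.1 and 92.3 FPKM. In CMP samples it was at 413, 386, 381, 327 and 433 FPKM and in CMP:MA9 at 109.8, 112, 149 and 88.2 FPKM. The leukaemias were the lower group without overlap. MPP and MPP:MA9 ranged from 339.7 to 393 with a median of 364 FPKM and from 67.7 to 135 with a median of 115 FPKM. GMP samples had 335, 333, 298, 269 and 348 FPKM, and GMP:MA9 ranged from 50.9 to 119 with a median of 90.0 FPKM. Neither pair overlapped. The log2 difference was -1.57 (SE 0.20, adjusted p = 4.55e-08), -1.84 (SE 0.16, adjusted p = 2.34e-12), -1.77 (SE 0.19, adjusted p = 4.21e-10) and -1.86 (SE 0.17, adjusted p = 2.22e-11) at the ST-HSC, MPP, CMP and GMP origins, or 3.01 to 3.57 times lower in group means. Tspan31, which overlaps Cdk4 on the other strand, had group means of 14.9 to 34.0 FPKM and differed by 0.28, 0.10, -0.15 and -0.46. It passed limma's test at the GMP origin alone (adjusted p = 0.00386), in the direction of Cdk4.

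Cdk6, the second D-cyclin kinase, did not pass the test at any single origin with all libraries and the settings used for the other genes. STHSC:MA9 samples had 121, 434 and 367 FPKM against 173, 176, 199.9, 155 and 216 FPKM in ST-HSC. CMP:MA9 samples had 187, 238, 339.5 and 363 FPKM against 268, 299, 272, 289 and 233 FPKM in CMP, and GMP:MA9 ranged from 215 to 338 with a median of 261 FPKM against 185 to 241 FPKM in GMP. Leukaemias and normal cells overlapped at all origins, with replicate 1 of STHSC:MA9 below every ST-HSC sample and the other 2 above every one. The difference was 0.55 (SE 0.26, adjusted p = 0.0725) for STHSC:MA9, 0.33 (SE 0.20, adjusted p = 0.157) for MPP:MA9 and 0.36 (SE 0.21, adjusted p = 0.15) for GMP:MA9, and for CMP:MA9 it was 0.01 with a 95% interval of -0.47 to 0.48. Without STHSC:MA9 replicate 1 the first of these was 1.12 and was called, and with median-ratio scaling it was 0.58 and passed (adjusted p = 0.0428). The GMP origin passed with those groups fitted alone (0.36, adjusted p = 0.0339). Averaged over the 4 origins Cdk6 was higher by 0.31 (SE 0.11, adjusted p = 0.0134), which no longer passed without STHSC:MA9 replicate 2 (0.22). Cdk6 made up 23.2 to 46.9% of the summed Cdk4 and Cdk6 FPKM in the normal samples and 55.9 to 81.3% in the leukaemias, and the sum itself was 193 to 684 FPKM in normal samples and 204 to 534 FPKM in leukaemias. Of the 2 kinases Cdk4 alone was called at each origin.

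Among the CIP/KIP inhibitors Cdkn1a, which is induced by p53 and halts the cycle after damage, rose at all 4 origins. ST-HSC samples had 7.47, 37.5, 14.0, 45.7 and 21.6 FPKM and STHSC:MA9 samples 112, 132 and 188 FPKM. CMP samples had 35.2, 41.2, 20.3, 28.8 and 23.0 FPKM and CMP:MA9 samples 106, 123, 256 and 194 FPKM. All leukaemias were above their normal cell. MPP and MPP:MA9 ranged from 23.6 to 71.4 with a median of 44.7 FPKM and from 75.8 to 197 with a median of 129 FPKM, so the gap between the highest MPP and the lowest MPP:MA9 sample was small. GMP samples had 15.3, 12.9, 12.3, 12.0 and 14.9 FPKM, and GMP:MA9 ranged from 26.1 to 154 with a median of 72.5 FPKM. The difference was 2.69 (SE 0.45, adjusted p = 5.92e-06), 1.52 (SE 0.36, adjusted p = 0.000379), 2.43 (SE 0.41, adjusted p = 5.33e-06) and 2.29 (SE 0.37, adjusted p = 3.36e-06) at the ST-HSC, MPP, CMP and GMP origins, and 3.06 (adjusted p = 3.07e-06) at the first without ST-HSC replicates 4 and 5.

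Cdkn1b, the inhibitor whose protein is mostly set by degradation, rose by smaller amounts. The 19 leukaemias lay between 10.2 and 21.4 FPKM and the 30 normal samples between 4.61 and 13.1 FPKM. STHSC:MA9 had 11.8, 10.2 and 12.6 FPKM against 7.44, 8.18, 7.97, 9.36 and 6.31 FPKM in ST-HSC, and GMP:MA9 ranged from 11.1 to 17.0 with a median of 14.9 FPKM against 4.61 to 7.55 FPKM in GMP. No leukaemia group overlapped its normal cell. The difference was 0.50 (SE 0.15, adjusted p = 0.00569), 0.73 (SE 0.12, adjusted p = 2.33e-06), 0.70 (SE 0.14, adjusted p = 5.19e-05) and 1.20 (SE 0.13, adjusted p = 5.86e-10), above 1 at the GMP origin alone.

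Cdkn1c, the imprinted inhibitor that keeps stem cells quiescent, was low in most samples. ST-HSC samples had 1.73, 0.77, 1.03, 0.79 and 0.71 FPKM and STHSC:MA9 samples 2.89, 9.06 and 9.49 FPKM, a difference of 1.91 (SE 0.48, adjusted p = 0.00113). MPP:MA9 ranged from 0.25 to 9.15 with a median of 1.26 FPKM and MPP from 0.22 to 2.00 with a median of 0.76 FPKM. The STHSC:MA9 samples did not overlap ST-HSC, whereas single leukaemias of the other origins were high (replicate 2 of MPP:MA9 at 9.15 FPKM, replicate 1 of GMP:MA9 at 4.36 FPKM) and the rest of their groups reached 4.11 and 0.94 FPKM. The differences there were 0.59 (SE 0.38, adjusted p = 0.172), 0.53 (SE 0.44, adjusted p = 0.302) and 0.79 (SE 0.40, adjusted p = 0.0852). With a pseudocount of 0.1 in place of 1 the GMP origin passed (2.19, adjusted p = 0.00975). Across the 19 leukaemias, Cdkn1c went with the summed level of the 8 mature granulocyte markers (Pearson r = 0.75, Spearman rho = 0.77, r = 0.64 without the 2 leukaemias farthest from the median of Cdkn1c, r = 0.68 within origins), and the part of those markers in the result was not tested.

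Cdkn2c, the INK4 inhibitor p18, rose at all origins and by the most varied amounts. ST-HSC samples had 17.5, 11.4, 11.2, 14.9 and 15.2 FPKM, and STHSC:MA9 samples 42.3, 119 and 115 FPKM. MPP:MA9 was tightly placed, from 81.3 to 101 with a median of 91.5 FPKM, against 6.93 to 15.6 with a median of 12.0 FPKM in MPP. CMP samples had 11.3, 11.2, 13.2, 13.0 and 12.8 FPKM and CMP:MA9 samples 18.4, 55.3, 18.7 and 18.2 FPKM. Replicates 1, 3 and 4 of CMP:MA9 were thus close together, and replicate 2 stood well above them. GMP:MA9 was spread from 12.7 to 82.0 with a median of 43.3 FPKM, with GMP at 11.5, 13.5, 12.6, 11.1 and 11.4 FPKM, so that its lowest leukaemia lay within the normal range. The difference was 2.51 (SE 0.38, adjusted p = 1.01e-06), 2.92 (SE 0.30, adjusted p = 1.56e-10), 0.93 (SE 0.35, adjusted p = 0.0209) and 1.51 (SE 0.31, adjusted p = 0.000107). The CMP value was under a log2 difference of 1, and without CMP:MA9 replicate 2 it was 0.55 and no longer passed.

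**Figure D3:**
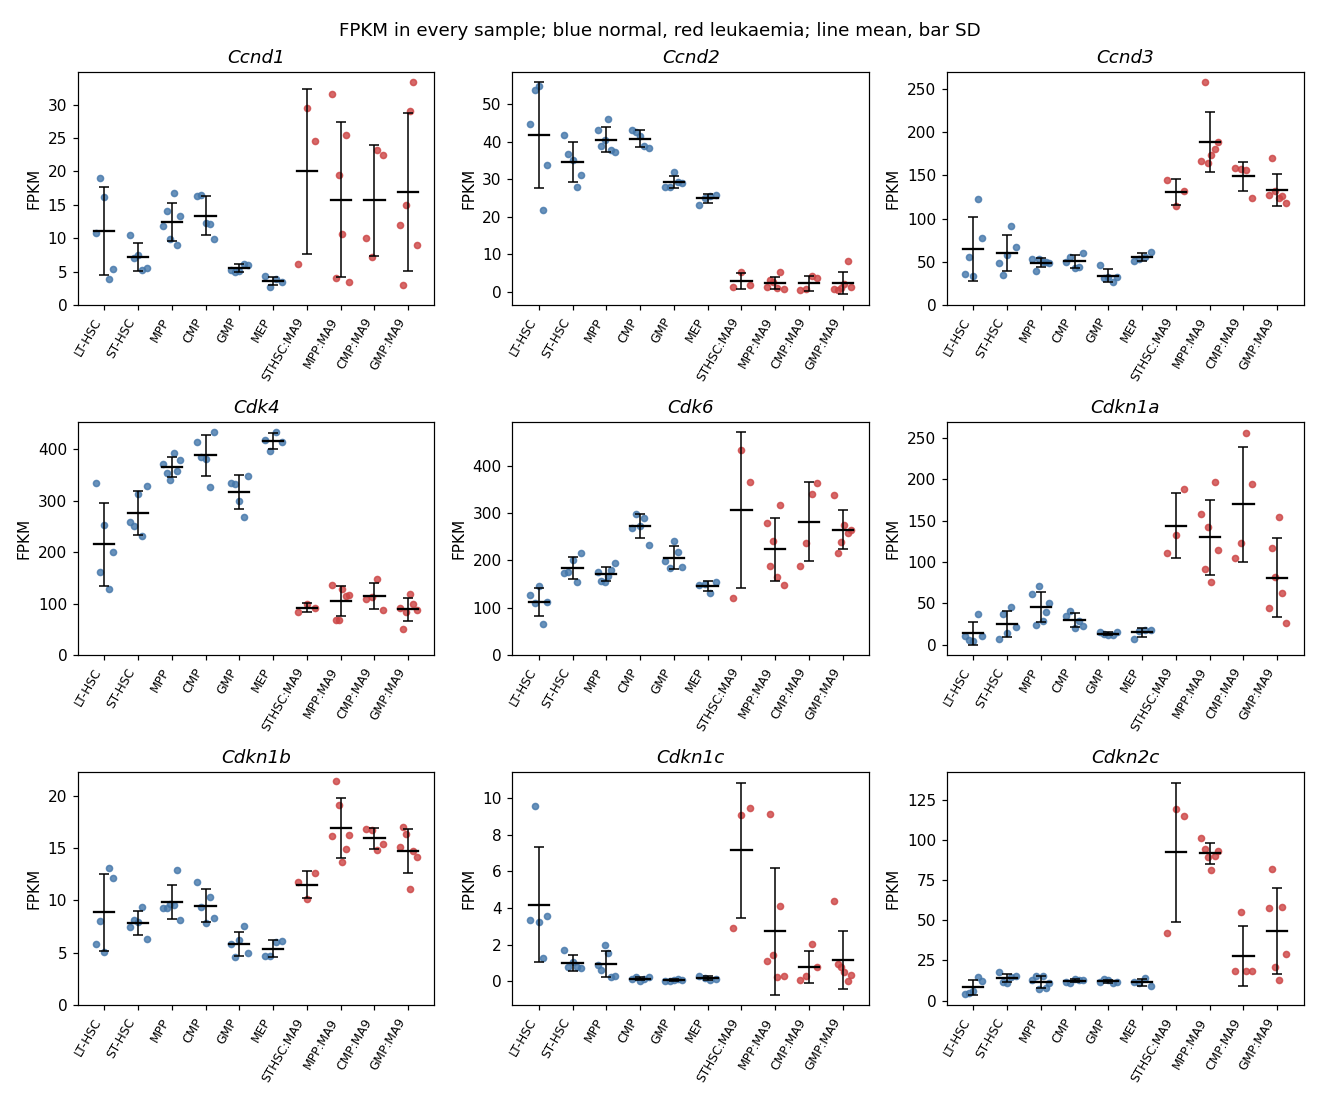
FPKM (vertical axes, linear) of the 9 genes in all 49 samples by group (horizontal axes), with points for samples, lines for group means and bars for the SD. The leukaemias (red) lie under all normal samples (blue) for Ccnd2 at 0.58 to 8.38 FPKM, while Ccnd1 in leukaemias is spread from 3.04 to 33.4 FPKM.

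The 4 measured inhibitors together reached 19.2 to 90.1 FPKM in normal samples and 69.7 to 325 FPKM in leukaemias. Cdkn1a made up 36.7 to 87.8% of that sum in the leukaemias and Cdkn2c 6.40 to 47.5%. The other INK4 genes, Cdkn2a and Cdkn2b, were under the filter on low values and have no test. Cdkn2b, chosen for mention after its values were seen, was at 0 to 0.19 FPKM in the normal samples and 0.28 to 5.08 FPKM in the leukaemias, and Cdkn2a was at 0 to 0.08 and 0 to 1.34 FPKM.

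Dependence of these changes on the origin was tested with an F test over the 4 differences. It passed for 3 of the 9 genes (background 38%), namely Cdkn2c (adjusted p = 0.00273), Cdkn1b (0.0179) and Ccnd3 (0.0323), a share close to that of the whole table. Cdkn2c rose most from MPP and least from CMP. Cdkn1b rose most from GMP, the normal cell with one of its lowest levels (5.85 ± 1.15 FPKM, SD, n = 5), and the leukaemias of ST-HSC, MPP, CMP and GMP origin had means of 11.5, 16.9, 15.9 and 14.7 FPKM. The result for Ccnd3 was lost without the 4 libraries with granulocyte and red cell transcripts (adjusted p = 0.123) and without ST-HSC replicate 4 or 5 or STHSC:MA9 replicate 2 or 3 alone (up to 0.102), that of Cdkn1b without GMP replicate 2 (0.0534), and both when libraries were scaled by the median ratio (0.0668 and 0.0872). For Ccnd2, Cdk4 and Cdkn1a the same test gave adjusted p = 0.787, 0.745 and 0.269.

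The 4 leukaemia groups were next compared with each other, in a fit of the 19 leukaemias alone. The F test over the groups passed for Cdkn2c (adjusted p = 0.015) and Ccnd3 (0.0316), 2 of 9 against 13.3% of 12128 genes. With GC content and length corrected for neither passed (adjusted p = 0.0742 and 0.945), and Ccnd3 was also lost with median-ratio scaling (0.123), with the replicate block (0.051) and when 8 of the 19 libraries were left out 1 at a time. One pair gave a call, with Cdkn2c higher in MPP:MA9 than in GMP:MA9 by 1.32 (SE 0.39, adjusted p = 0.0265), against a background of calls of 2.23%, although the groups overlapped. In the same pair Ccnd3 was higher in MPP:MA9 by 0.49 (SE 0.12, adjusted p = 0.0108), so 2 genes passed by adjusted p (background 15.9%). Both results were lost when GC content and length were corrected for, with Ccnd3 at -0.03, and that of Cdkn2c also without GMP:MA9 replicate 3, 4 or 6 (1.03 to 1.55 over all libraries left out in turn). STHSC:MA9 had less Cdkn1b than MPP:MA9, with a difference of -0.51 (SE 0.14, adjusted p = 0.0297), and less Ccnd3, with -0.52 (SE 0.15, adjusted p = 0.0352), against a background of 11.2%. Neither passed under that correction, with median-ratio scaling (adjusted p = 0.091 and 0.107) or with those groups fitted alone (0.0644 and 0.0646). Of the 9 fits that left out 1 library, 4 lost the result for Cdkn1b and 3 that for Ccnd3. Among them were the fits without STHSC:MA9 replicate 2 or 3, and without MPP:MA9 replicate 3 for Cdkn1b or replicate 6 for Ccnd3.

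No gene of the 9 passed limma's test in the other pairs. The background there was 0.635% for STHSC:MA9 against CMP:MA9, 1.1% for STHSC:MA9 against GMP:MA9, 0.157% for MPP:MA9 against CMP:MA9 and 1.04% for CMP:MA9 against GMP:MA9. Cdkn1c in STHSC:MA9 gave 2.16 (SE 0.65, adjusted p = 0.122) against CMP:MA9 and 2.00 (SE 0.60, adjusted p = 0.103) against GMP:MA9. Cdkn2c in MPP:MA9 against CMP:MA9 gave 1.87 (SE 0.43, adjusted p = 0.114) with groups that did not overlap. The intervals of Ccnd2 between leukaemia groups were wide, for example -0.72 to 1.13 for MPP:MA9 against GMP:MA9, and those of Cdk4 narrower, at -0.20 to 0.66.

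Within the 19 leukaemias the spread of Ccnd1 went with that of Cdk6 and Ccnd2. Ccnd1 and Cdk6 gave Pearson r = 0.71 and Spearman rho = 0.72 on log2(FPKM + 1), r = 0.69 without the 2 leukaemias farthest from the median of Ccnd1 and r = 0.72 within origins. Ccnd1 and Ccnd2 gave r = 0.61, rho = 0.67, r = 0.54 without those 2 and r = 0.62 within origins. Ccnd3 went with Ccnd1 in the opposite direction (r = -0.52, rho = -0.44, r = -0.45 without those 2, r = -0.69 within origins). Cdk4 and Cdkn1b had r = -0.34, rho = -0.36, r = -0.34 without the 2 leukaemias farthest from the median of Cdk4 and r = -0.77 within origins. In all 45 pairs were computed, over values that share a library and its depth, and those named were picked after their values were seen and are given as a description. The sum of granulocyte markers went less with Ccnd1, Cdk6 and Ccnd2 than with Cdkn1c. For Ccnd1 the values were r = -0.03 and rho = 0.06, and r = -0.07 without the 2 leukaemias farthest from its median. For Cdk6 they were r = 0.26, rho = 0.39 and r = 0.45 without its 2, and for Ccnd2 r = 0.25, rho = 0.39 and r = 0.43. Within origins r was -0.08, 0.31 and 0.21 for Ccnd1, Cdk6 and Ccnd2. The part of granulocyte transcripts in the spread of these genes was not tested.

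**Figure D4:**
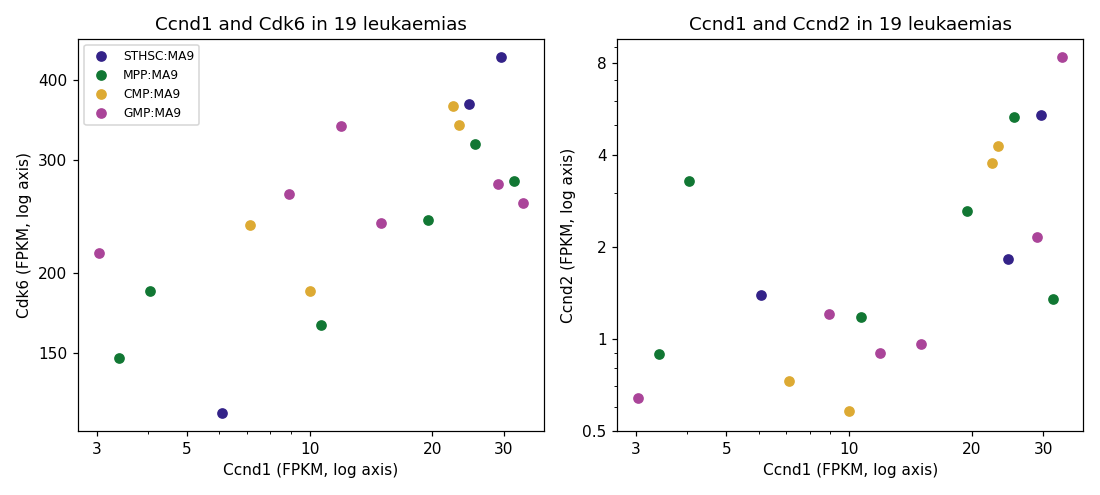
Ccnd1 (horizontal axes, FPKM on a log scale) against Cdk6 (left) and Ccnd2 (right; both FPKM on log scales), with 1 point for each of the 19 leukaemias, coloured by group. The points of every origin are spread along Ccnd1, from 3.04 to 33.4 FPKM, with r = 0.71 for Cdk6 and r = 0.61 for Ccnd2 on log2(FPKM + 1).

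In the normal cells the same genes were followed from LT-HSC to the committed progenitors. An F test over the 6 groups passed for 8 of the 9 genes, Cdkn2c (adjusted p = 0.0505) being the exception, against 78.4% of 12367 genes. Of the genes that passed, Cdk6 had the smallest adjusted p (1.46e-07), ahead of Cdkn1c (1.12e-06). Without the 4 libraries with granulocyte and red cell transcripts all 9 passed, with Cdkn2c at 0.000145. The result for Ccnd3 (adjusted p = 0.0493) was lost when 24 of the 30 libraries were left out 1 at a time.

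Cdk6 was lowest in LT-HSC, at 126, 109, 146, 65.0 and 112 FPKM, and highest in CMP, at 268, 299, 272, 289 and 233 FPKM. MEP samples had 147, 149.8, 131 and 154 FPKM and overlapped LT-HSC. In order of the mean, the levels were 112 FPKM in LT-HSC (65.0 to 146 FPKM, n = 5), 146 ± 10.2 FPKM (SD, n = 4) in MEP, 172 ± 15.0 FPKM (SD, n = 6) in MPP, 184 ± 24.0 FPKM (SD, n = 5) in ST-HSC, 206 ± 23.7 FPKM (SD, n = 5) in GMP and 272 ± 25.2 FPKM (SD, n = 5) in CMP. Neighbours in this order overlapped, except MEP and MPP, whose closest samples were at 154 and 155 FPKM. LT-HSC lay below ST-HSC without overlap, with a log2 difference of -0.75 (SE 0.14, adjusted p = 0.000919), or -0.53 (adjusted p = 0.00669) without the 4 libraries, and MPP below CMP with -0.66 (SE 0.13, adjusted p = 0.00111). The 5 megakaryocyte-erythroid markers summed to 469 to 2807 FPKM in LT-HSC, 193 to 303 FPKM in ST-HSC and 2788 to 3275 FPKM in MEP. In CMP the sums were spread from 260 to 2736 FPKM, with a median of 1027 FPKM. Of the 5 markers 3 were called higher and 1 lower in LT-HSC than in ST-HSC. The part of these markers in the results for LT-HSC and for CMP, here and below, was not tested. CMP lay above GMP by 0.40 (SE 0.14, adjusted p = 0.0257) and above MEP by 0.90 (SE 0.15, adjusted p = 3.59e-05), and GMP above MEP by 0.49 (SE 0.15, adjusted p = 0.00771). After median-ratio scaling CMP against GMP was 0.17 (adjusted p = 0.258).

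Cdkn1c was highest in LT-HSC, at 3.36, 9.55, 3.22, 1.26 and 3.54 FPKM. CMP, GMP and MEP samples were at or below 0.31 FPKM, 1 GMP sample being listed at 0. LT-HSC exceeded ST-HSC by 1.21 (SE 0.28, adjusted p = 0.00581), and by 1.44 (adjusted p = 0.00555) without the 4 libraries, but when LT-HSC and ST-HSC were fitted alone neither Cdkn1c nor Cdk6 passed (adjusted p = 0.176 and 0.14). The groups overlapped through LT-HSC replicate 4 (1.26 FPKM), one of those libraries. MPP against CMP gave 0.66 (SE 0.27, adjusted p = 0.0968), and 1.78 (adjusted p = 0.0192) with a pseudocount of 0.1.

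Cdk4 was lowest in LT-HSC (215 ± 80.9 FPKM, SD, n = 5) and highest in MEP (416 ± 15.1 FPKM, SD, n = 4). Its F test passed (adjusted p = 1.91e-05), but no step between neighbouring cell types passed in the fit of all normal samples. With only the groups compared in the fit, ST-HSC against MPP (adjusted p = 0.0131), CMP against GMP (0.0337) and GMP against MEP (0.00121) passed. LT-HSC samples had 334, 162, 252, 128 and 199 FPKM, the widest range of the 6 groups. MEP samples had 419, 397, 434 and 414 FPKM, which lay above all LT-HSC, ST-HSC, MPP and GMP samples and overlapped CMP. LT-HSC against ST-HSC gave -0.43 (SE 0.16, adjusted p = 0.0934) and ST-HSC against MPP -0.42 (SE 0.15, adjusted p = 0.0555), the latter passing without the 4 libraries (adjusted p = 0.0324), and GMP against MEP -0.40 (SE 0.17, adjusted p = 0.0542).

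Among the cyclins, Ccnd1 was highest in CMP (13.4 ± 2.87 FPKM, SD, n = 5) and MPP (12.5 ± 2.85 FPKM, SD, n = 6) and lowest in MEP (3.58 ± 0.67 FPKM, SD, n = 4). It was called in CMP against GMP, by 1.13 (SE 0.26, adjusted p = 0.00126), and in CMP against MEP, by 1.64 (SE 0.28, adjusted p = 4.90e-05), in both without overlap, and ST-HSC against MPP gave -0.74 (SE 0.25, adjusted p = 0.0406), a result lost when 8 of the 11 libraries of those groups were left out 1 at a time. The call in CMP against GMP fell under a log2 difference of 1 (0.92) when libraries were scaled by the median ratio, which moved the median of all genes in that comparison from 0.20 to 0.01. Ccnd2 was higher in CMP than in GMP by 0.47 (SE 0.16, adjusted p = 0.0187) and than in MEP by 0.69 (SE 0.17, adjusted p = 0.00193), and after median-ratio scaling the first of these was 0.25 (adjusted p = 0.141). Ccnd3 was lower in GMP (33.8 ± 7.41 FPKM, SD, n = 5) than in MEP (55.1 ± 4.63 FPKM, SD, n = 4) (log2 difference -0.71, SE 0.26, adjusted p = 0.0274), with Bysl lower as well (-0.98, adjusted p = 0.000796), and the result for Ccnd3 did not pass after median-ratio scaling (adjusted p = 0.0663). LT-HSC replicates 4 and 5 had the highest Ccnd3 of all normal samples (123 and 77.3 FPKM) together with ST-HSC replicate 4 (90.9 FPKM), and the lowest Ccnd1 of their group (3.93 and 5.45 FPKM). Without the 4 libraries LT-HSC exceeded ST-HSC for Ccnd1 by 0.80 (adjusted p = 0.0185) and for Ccnd2 by 0.42 (adjusted p = 0.00936).

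Of the inhibitors, Cdkn1b was higher in CMP than in GMP, by 0.62 (SE 0.18, adjusted p = 0.00878), and than in MEP, by 0.71 (SE 0.19, adjusted p = 0.00589), and neither passed after median-ratio scaling (adjusted p = 0.127 and 0.0528). Cdkn2c was lower in LT-HSC, at 3.98, 5.04, 6.14, 14.4 and 12.5 FPKM, than in ST-HSC, with a difference of -0.80 (SE 0.23, adjusted p = 0.0283). The 2 high LT-HSC values were those of the libraries with granulocyte and red cell transcripts, and without the 4 libraries the difference was -1.23 (adjusted p = 0.000738). With them it no longer passed when 5 of the 10 libraries were left out 1 at a time, with median-ratio scaling (adjusted p = 0.0973), without the filter on low values (0.0507), with those groups fitted alone (0.325) or with the replicate block and GC and length correction together (0.0613). Cdkn1a varied within the stem cell groups, from 4.76 to 37.5 FPKM in LT-HSC and from 7.47 to 45.7 FPKM in ST-HSC, and reached 45.7 ± 18.6 FPKM (SD, n = 6) in MPP. ST-HSC against MPP gave -0.98 (SE 0.41, adjusted p = 0.0917), and -1.36 (adjusted p = 0.0111) without the 4 libraries.

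Over the steps of normal development, 3 of 9 genes passed by adjusted p between LT-HSC and ST-HSC (background 9.19%; 1 was called, against 2.26%), 1 between ST-HSC and MPP (18.9%) and 1 between MPP and CMP (14.5%). Between CMP and GMP 4 passed (36.7%; 1 called, against 11.2%), between CMP and MEP 4 (31.6%; 1 called, against 11.8%) and between GMP and MEP 2 (46.7%). Neighbouring comparisons share a group of samples.

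The other genes of the pathway were taken from 4 lists, chosen with earlier results of these data known. They were fitted with all libraries and the main settings only. Of 25 partners at the G1/S boundary (cyclin E and Cdk2, the Cdk-activating kinase, the retinoblastoma family, E2F factors and others) 23 were tested, and their calls were 1 higher and 1 lower in STHSC:MA9, 2 and 5 in MPP:MA9, 1 and 7 in CMP:MA9 and 1 and 4 in GMP:MA9. Over all genes 12.3% were called higher and 11.9% lower in STHSC:MA9, 13.5% and 13.6% in MPP:MA9, 13% and 14.8% in CMP:MA9, and 13.5% and 8.87% in GMP:MA9. E2f2, an activating E2F factor, was the call shared by all origins (log2 difference 1.17, SE 0.30, adjusted p = 0.0012 in STHSC:MA9, and 2.66, 2.28 and 2.46 in MPP:MA9, CMP:MA9 and GMP:MA9). Rb1, the retinoblastoma gene, was called in MPP:MA9 (1.14, SE 0.16, adjusted p = 1.61e-07). Tfdp2, the partner protein of E2F factors, fell by 1.74, 1.72 and 1.45 in STHSC:MA9, MPP:MA9 and CMP:MA9, and Cks1b, a subunit of Cdk complexes, by 1.44 in GMP:MA9. The other genes with the largest falls were Ccnh, the cyclin of the Cdk-activating kinase, in MPP:MA9 (-1.28), E2f4, a repressing E2F factor, in CMP:MA9 (-1.40) and Cdc25a, which activates Cdk2, in GMP:MA9 (-1.12). The list's median was -0.20, -0.31, -0.55 and -0.46 at the 4 origins, against -0.04, -0.09, -0.16 and 0.00 for all genes.

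Genes of S phase and mitosis were lower in the leukaemias by the list median, without a call at the ST-HSC origin. All 18 were tested, none was called higher, and 0, 5, 10 and 10 were called lower at the ST-HSC, MPP, CMP and GMP origins, against 11.9, 13.6, 14.8 and 8.87% of all genes. Among those called were Mcm6, a subunit of the replicative helicase, in MPP:MA9 (-1.11), Mcm2, another subunit, and Cdc6, which loads that helicase, in CMP:MA9 (-1.59 and -1.45), and Cdk1, the mitotic kinase, and Cdc6 in GMP:MA9 (-1.44 and -1.43). The median was -0.40, -0.84, -1.13 and -1.05 at the 4 origins, against -0.04, -0.09, -0.16 and 0.00 for all genes. In STHSC:MA9 6 of 18 passed by adjusted p in that direction without a difference above 1, where 48.4% of all genes passed in either direction.

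Of 13 targets of p53, Cdkn1a not counted, 10 were tested, and 4, 4, 2 and 5 were called higher and none lower at the ST-HSC, MPP, CMP and GMP origins. The share of all genes called higher was 12.3, 13.5, 13 and 13.5%. By adjusted p alone 7, 7, 6 and 7 passed higher, and 1, 2, 0 and 0 passed lower. Of all genes 48.4, 62.5, 59.8 and 58.4% passed in either direction. Pmaip1 (Noxa), which promotes cell death, rose by 2.87, 3.00, 3.44 and 3.01, and Trp53inp1, a stress-induced p53 target, by 1.27, 1.16, 1.47 and 2.04. The list's median was 0.92, 0.76, 0.55 and 0.88, against -0.04, -0.09, -0.16 and 0.00 for all genes.

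**Figure D5:**
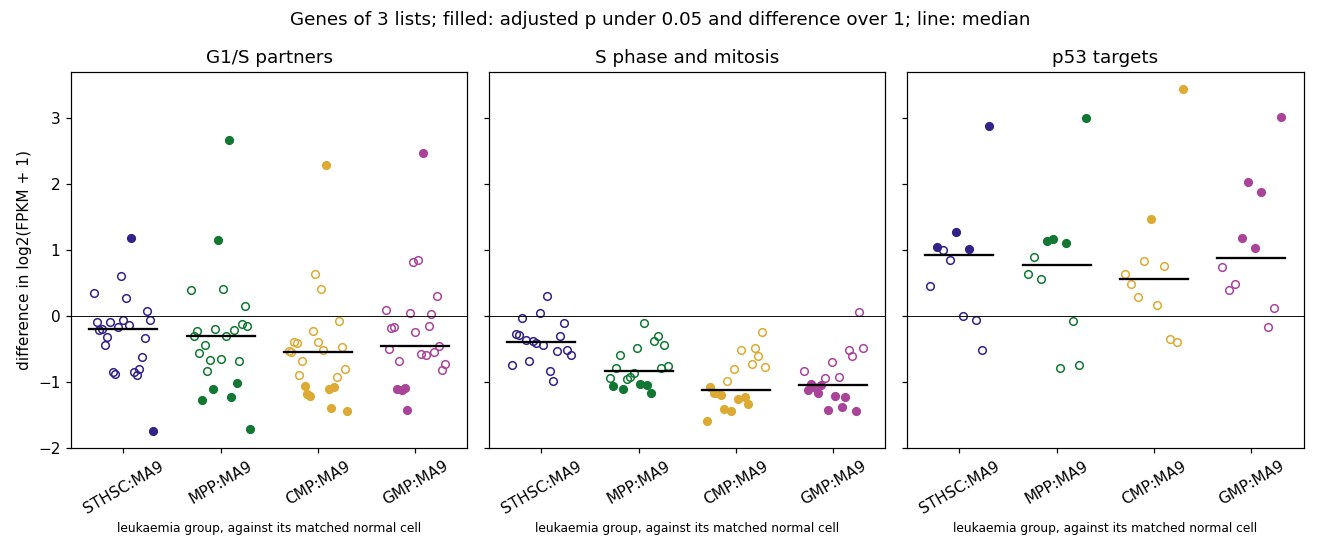
Difference in log2(FPKM + 1) from the matched normal cell (vertical axis) for the tested genes of 3 lists in the 4 leukaemia groups (horizontal axes), with filled points for called genes and lines for list medians. No gene of the S phase and mitosis list is called higher, and no p53 target is called lower.

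Of 18 imprinted genes, the class to which Cdkn1c belongs, 15 had a row and 6 were tested against the leukaemias. Grb10, a maternally expressed signalling adaptor, fell by 4.07, 2.52, 3.66 and 2.12 at the ST-HSC, MPP, CMP and GMP origins, and Sgce by 3.31, 2.65 and 2.09 in the first 3. Slc22a18, which lies in the imprinted domain of Cdkn1c, was called higher in GMP:MA9 (1.11, SE 0.36, adjusted p = 0.0085). In all, 0, 0, 0 and 1 of the 6 were called higher and 3, 3, 3 and 1 lower, where 12.3, 13.5, 13 and 13.5% of all genes were called higher and 11.9, 13.6, 14.8 and 8.87% lower. Between LT-HSC and ST-HSC Meg3 and Phlda2, 2 of 7 tested, were called higher in LT-HSC (1.46 and 1.23), as Cdkn1c was, and 2.26% of all genes were called in either direction.

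In the same normal step from LT-HSC to ST-HSC, 9 of the 18 S phase and mitosis genes were lower in LT-HSC by adjusted p, where 9.19% of all genes passed in either direction, with Top2a, which untangles DNA (-1.07, SE 0.18, adjusted p = 0.00031), and Ccnb1, the mitotic cyclin (-1.02, SE 0.26, adjusted p = 0.0101), called. The median of the list was -0.43 against -0.12 for all genes. No list was refitted without the 4 libraries with granulocyte and red cell transcripts, which belong to LT-HSC and ST-HSC. Of the G1/S partners Ccne1, the cyclin E that acts after the D-type cyclins, gave -1.05 in MPP against CMP, -1.79 in CMP against MEP and -2.25 in GMP against MEP. E2f4 gave 1.02 in CMP against GMP and -1.66 in GMP against MEP, and all of these were called.

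The genes whose pattern over all 49 samples was most like that of each of the 9 were sought among 12666 genes that averaged 1 FPKM or more, by Pearson's r of log2(FPKM + 1). For Ccnd2 they were Rab38, Gpr128 and Nedd4 (r = 0.96, 0.96 and 0.95), for Ccnd3 Ep300, Gm15922 and Lilra6 (0.95, 0.94 and 0.94), and for Cdk4 Bzw2, Phgdh and Rcc2 (0.96 each). For Cdkn1b they included Arhgef1 and Stat6 (0.92 each), and they were for Cdkn1a Myh9, Stk10 and Krt80 (0.88, 0.87 and 0.87) and for Cdkn2c Rab11fip4, Gsn and Dsp (0.87, 0.86 and 0.85). The nearest genes to Cdk6 were Btnl9, Spn and Arhgap11a (0.82, 0.75 and 0.73), to Cdkn1c Fam110c, Thbs1 and Il18bp (0.81, 0.73 and 0.72) and to Ccnd1 Gm14636, Car12 and Dusp6 (0.69, 0.66 and 0.65). Genes that differ between the 19 leukaemias and the 30 normal samples can be alike on this measure through that contrast, whose part in these values was not tested. Of the 9 genes only Ccnd2 had no overlap between leukaemias and normal samples. The lowest values were those of Ccnd1, Cdk6 and Cdkn1c.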

How the data were processed

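The authors deposited FPKM values from RSEM, rounded to 2 decimals, for RNA amplified with a kit that does not mark strand; the submitters' processing notes name mm9, and the RSEM version and annotation are not given in the sources used here. RSEM counts, which the study tested with edgeR, were not used here. The table had 68 columns, and 19 of them, whose names fit no label, were left out. Groups and replicate numbers came from the labels. The samples came from 2 replicate experiments according to the study, and since the labels do not say which sample belongs to which, no batch term was fitted and experiment and group cannot be told apart. GENCODE M1 on NCBIM37 gave symbols for 33068 of 38253 genes.

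Genes that averaged at least 1 FPKM in the samples of a fit were tested on log2(FPKM + 1), pseudocount 1, with limma 3.58.1 in R 4.3.3 (mean-variance trend, two-sided, Benjamini-Hochberg). The 19 leukaemias, the 30 normal samples, and the 4 leukaemias with their 4 normal groups had a fit each (12128, 12367 and 12600 genes). The fits were tested on simulated data. Same-numbered samples deviated together, with r over 0.1 in every pair, only for LT-HSC against ST-HSC (r = 0.14 to 0.68 across genes), and blocking on the number changed no result by limma's test there. No 2 libraries were identical. Depth is known only relative to other libraries, estimated from the steps between low values (91.1% of 1176 pairs within 0.1 on the log2 scale of the joint estimate), so no counting interval was given.

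The members and lists were chosen with earlier results of these data known. All 10 listed genes were to be described; from each list up to 2 called genes per direction and comparison with the largest difference, and for each member the 3 genes with the highest r. Alternatives were a pseudocount of 0.1, no filter, median-ratio scaling, a replicate block, GC and length correction with and without it, a fit of only the groups compared, leaving out 4 libraries with granulocyte and red cell transcripts and leaving out each library. Python 3.11.15, numpy 2.4.6, pandas 2.3.3, scipy 1.17.1 and matplotlib 3.10.9 were used for the rest. Some genes that the naming rule would give are not reported here.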

Additional observations from a re-analysis of the deposited data

Results flagged for a closer look

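In 11 of 81 sets of 4 to 10 samples (a gene in a group), 1 sample lay further from the others than Dixon's test allows at 95%, where chance alone gives about 1 in 20. For Ccnd3 they were MPP replicate 2 (38.7 FPKM), MPP:MA9 replicate 2 (258.42 FPKM), CMP:MA9 replicate 4 (123.38 FPKM) and GMP:MA9 replicate 2 (170.72 FPKM). For Cdkn1a they were LT-HSC replicate 4 (37.5 FPKM), which also carried granulocyte and red cell transcripts, and MEP replicate 1 (7.16 FPKM). For Cdkn1c they were LT-HSC replicate 2 (9.55 FPKM) and GMP:MA9 replicate 1 (4.36 FPKM). The others were Ccnd2 in GMP:MA9 replicate 5 (8.38 FPKM), Cdkn1b in MPP replicate 5 (12.9 FPKM) and Cdkn2c in CMP:MA9 replicate 2 (55.3 FPKM). MPP:MA9 replicate 2 had the highest Ccnd3, Cdkn1b and Cdkn1c of its group.

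The change from the normal cell to the leukaemia differed among the 4 origins by limma's F test for Cdkn2c (adjusted p = 0.00273), Cdkn1b (adjusted p = 0.0179) and Ccnd3 (adjusted p = 0.0323). Cdkn2c rose by 2.92 from MPP and 0.93 from CMP, Cdkn1b by 1.20 from GMP and 0.50 from ST-HSC, and Ccnd3 by 1.96 from GMP and 1.18 from ST-HSC on the log2(FPKM + 1) scale.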

How the results depend on the processing

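Among alternatives that left out no library in turn, 582 values for single genes kept direction and side of the threshold, 25 gained the threshold, 54 lost it and 3 changed sign. The calls of Ccnd2, Ccnd3, Cdk4 and Cdkn1a against the normal cell held at every origin under all of them. The number of the 9 genes called in STHSC:MA9 against ST-HSC, MPP:MA9 against MPP, CMP:MA9 against CMP, GMP:MA9 against GMP and CMP against MEP stayed within 1.5 times its value. The number whose change differed among origins went from 3 to 1 with median-ratio scaling, with GC and length correction, and with that correction plus the replicate block. In MPP:MA9 against GMP:MA9 it went from 1 to 0 without the filter, with GC and length correction, and with that correction plus the block. For the 4 leukaemia groups it went from 2 to 1 with median-ratio scaling or the replicate block, and to 0 with GC and length correction with or without the block. In LT-HSC against ST-HSC it went from 1 to 0 with those groups fitted alone and to 2 without the 4 libraries with granulocyte and red cell transcripts, which also gave 1 in place of 0 in ST-HSC against MPP. A pseudocount of 0.1 gave 1 in place of 0 in MPP against CMP. In CMP against GMP it went from 1 to 0 with median-ratio scaling and with GC and length correction, blocked or not, and to 2 with the groups fitted alone. Ccnd3 changed sign with GC and length correction in STHSC:MA9 against MPP:MA9 (0.014) and in MPP:MA9 against GMP:MA9 (-0.030, with the block too). The cause was not tested.

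Leaving out 1 library at a time gave 6 to 8 calls for STHSC:MA9 against ST-HSC, 5 to 5 for MPP:MA9 against MPP, 4 to 5 for CMP:MA9 against CMP and 6 to 7 for GMP:MA9 against GMP. It gave 0 to 1 for STHSC:MA9 against MPP:MA9 (1 without MPP:MA9 replicate 2) and against CMP:MA9 (1 without STHSC:MA9 replicate 1), and 0 to 1 for MPP:MA9 against GMP:MA9 (0 without GMP:MA9 replicate 3 or 6). The leukaemia F test gave 1 to 3 (1 without STHSC:MA9 replicate 2 or 3, MPP:MA9 replicate 5 or 6, or GMP:MA9 replicate 5 or 6), and the F test over origins 2 to 4. LT-HSC against ST-HSC gave 0 to 3 (0 without LT-HSC replicate 2, 3 without LT-HSC replicate 4), ST-HSC against MPP 0 to 1 (1 without ST-HSC replicate 4) and CMP against GMP 1 to 2 (2 without CMP replicate 3). Apart from LT-HSC against ST-HSC, no comparison had every same-numbered pair correlated over 0.1. With the replicate block Ccnd1 in ST-HSC against MPP (adjusted p = 0.0619), Ccnd3 among origins (0.0609) and Ccnd3 among leukaemia groups (0.051) no longer passed, and it let Cdkn1c in GMP:MA9 against GMP (0.0462) and Cdk4 in GMP against MEP (0.0321) pass. LT-HSC and ST-HSC libraries were the shallowest with MEP and STHSC:MA9, which limits what can be said of Cdkn1c near 0.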
